A study of Homo sapiens with 21 samples.

Results

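The 10 genes described here encode regulators of the IRE1, ATF6 and CREB3 branches of the unfolded protein response (UPR), and were taken by symbol from the 60671 genes of the count table for their known roles, with earlier results of these data known. They are the sensor and endonuclease IRE1 (ERN1), its substrate XBP1, the chaperone gene DNAJB9, the membrane-anchored transcription factors ATF6, ATF6B, CREB3, CREB3L2 and CREB3L4, and the site-1 and site-2 proteases that release such factors (MBTPS1 and MBTPS2). Polyadenylated RNA was sequenced from 21 libraries in 7 groups of 3 replicates. OCI-AML3, a human acute myeloid leukaemia line grown in suspension, was untreated at 0 h or was exposed to DMSO or to tunicamycin at 1 μg/mL for 4 h or for 24 h. HEK293T, a human embryonic kidney line that carries the SV40 large T antigen, was exposed to DMSO or to the same dose of tunicamycin for 24 h. Tunicamycin blocks N-linked glycosylation and thereby causes proteins to misfold in the endoplasmic reticulum (ER), and DMSO is its solvent. Each line stands for 1 genetic background, no engineered allele is named in the labels, and the lines were kept in different media, so that line and medium cannot be told apart.

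All 10 genes passed the filter on low counts (at least 1 CPM, the count scaled to the size of its library, in at least 8 libraries), together with 14012 genes in all. Libraries held 13838480 to 19961819 counts. Among the myeloid markers listed, PTPRC (CD45) had a mean level of 298 CPM, SPI1 of 286 CPM and CD33 of 71.8 CPM in OCI-AML3 after DMSO for 24 h. Of the markers listed for HEK293T, LIN28B was at 106 CPM and CDH2 at 69.0 CPM in that line, but PAX2 at 1.11 CPM and EPCAM at 0.893 CPM, and the myeloid marker HOXA9 was higher in HEK293T (127 CPM) than in OCI-AML3 (59.3 CPM). Apart from HOXA9 each marker is given in 1 line only, and other listed markers are not described, so these levels do not by themselves tell the lines apart. The labels call the libraries replicates without saying whether they came from separate cultures. The p-values therefore weigh each difference against a spread estimated over all 21 libraries, and that spread may be technical.

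IRE1 senses unfolded proteins in the ER lumen. When activated it cuts a short intron out of the XBP1 messenger RNA in the cytoplasm, and the joined RNA encodes a potent transcription factor, XBP1s. ATF6, ATF6B and the CREB3 family are made as ER membrane proteins, travel to the Golgi under stress, and are cut there by the site-1 and site-2 proteases so that their cytosolic parts can enter the nucleus. In this pathway much of the regulation acts on protein, by dimerisation, cleavage and transport, and the counts used here report RNA only. As in any bulk RNA measurement, each level is relative to the library total, so that a change in RNA per cell and a change in the share of cells with that RNA cannot be told apart.

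The stretch that IRE1 removes from XBP1 RNA is shown because the gene counts cannot see it. In the GENCODE annotation of GRCh38 it is a gap of 26 bases in transcript XBP1-202, at chr22:28796128-28796153 on the minus strand, and it lies inside an exon of 3 others (XBP1-201, XBP1-203 and XBP1-204). It is given 5′ to 3′ as DNA, in capitals, with 30 bases of exon on each side in lower case.
XBP1 excised stretch: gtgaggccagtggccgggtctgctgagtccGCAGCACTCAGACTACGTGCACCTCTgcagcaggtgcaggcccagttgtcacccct
Its length leaves a remainder of 2 after division by 3, so its removal shifts the reading frame. The 6 bases that open it, GCAGCA, also follow it, and the annotated gap alone therefore fixes the ends only to within those bases. The capitals follow the annotation and need not begin and end at the cuts that IRE1 makes. Counts per gene add both forms, and every XBP1 value below is their sum.

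The promoters of XBP1, DNAJB9 and CREB3L2 are shown because these genes had a log2 fold change above 1 with tunicamycin in HEK293T cells. Each sequence is the 250 bases before the first transcription start in RefSeq (build GRCh38.p14), 5′ to 3′ on the strand of the gene. Capitals mark matches on either strand to CCAAT and CCACG, the 2 ends of the ER stress response element (ERSE) bound by NF-Y and by ATF6 or XBP1, to the core ACGTG, and to the cyclic AMP response element TGACGTCA.
XBP1, chr22:28800570-28800819, minus strand: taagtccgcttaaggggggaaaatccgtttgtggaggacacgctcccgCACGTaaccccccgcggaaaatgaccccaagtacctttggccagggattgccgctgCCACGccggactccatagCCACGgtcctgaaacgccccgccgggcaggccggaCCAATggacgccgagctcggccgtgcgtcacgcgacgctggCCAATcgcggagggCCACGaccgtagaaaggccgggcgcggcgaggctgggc
DNAJB9, chr7:108569624-108569873, plus strand: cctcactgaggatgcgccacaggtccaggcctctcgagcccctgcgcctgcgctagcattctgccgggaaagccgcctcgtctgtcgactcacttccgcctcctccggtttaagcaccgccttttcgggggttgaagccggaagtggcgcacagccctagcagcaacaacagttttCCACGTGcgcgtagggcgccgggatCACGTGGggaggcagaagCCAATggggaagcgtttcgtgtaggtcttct
CREB3L2, chr7:138002087-138002336, minus strand: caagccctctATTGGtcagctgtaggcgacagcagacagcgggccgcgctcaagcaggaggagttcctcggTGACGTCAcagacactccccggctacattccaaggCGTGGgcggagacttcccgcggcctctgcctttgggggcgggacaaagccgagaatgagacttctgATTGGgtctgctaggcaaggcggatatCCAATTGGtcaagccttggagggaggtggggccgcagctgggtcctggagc
XBP1 held the whole ERSE, CCAAT and CCACG with 9 bases between them, from base -52 to base -34 relative to the start. Of the 35116 RefSeq windows of 300 bases (250 before to 50 after a start), 27 or 0.0769% held it on either strand, and among the 10 genes XBP1 was the only one. DNAJB9 held the palindrome CACGTG at 2 places, at -73 to -68 and -49 to -44, each overlapping a CCACG, and a CCAAT at -31 to -27. CACGTG occurred in 7.26% of windows, and ATF6B, not called with tunicamycin in any comparison, also held it, at -102 to -97. CREB3L2 held CCAAT at 4 places and TGACGTCA, which occurred in 1.85% of windows, at -179 to -172. Single ends are common, with CCAAT in 34.6% and CCACG in 13375 of 35116 windows, and the ATF6 and MBTPS2 windows held neither. A match of letters is a description of the sequence and not evidence of binding.

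**Figure D1:**
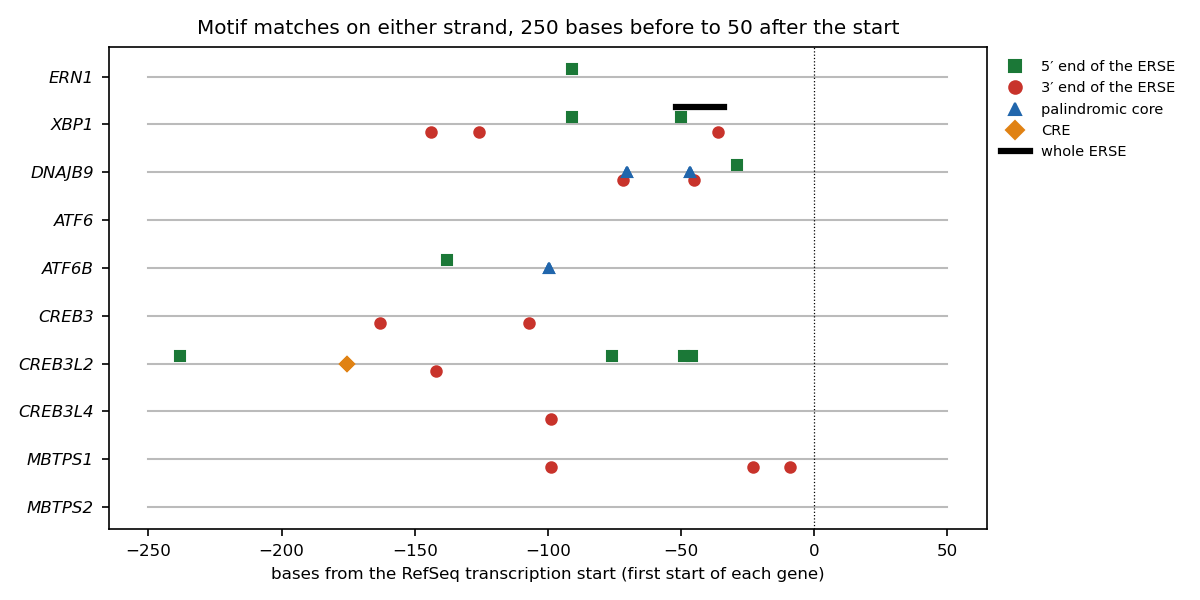
Matches to the 5′ and 3′ ends of the ERSE, the palindrome CACGTG (named palindromic core in the key) and the cyclic AMP response element (CRE) in the promoter of each gene. The x axis gives bases from the RefSeq start, and the black bar marks the whole ERSE, found in XBP1 from -52 to -34.

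Tunicamycin raised 6 of the 10 genes in OCI-AML3 cells at 4 h (ERN1, XBP1, DNAJB9, ATF6, CREB3L2 and CREB3L4) and lowered MBTPS1. At 24 h it raised 6 (ERN1, XBP1, DNAJB9, CREB3L2, CREB3L4 and MBTPS2), and in HEK293T cells 8, all but ATF6B and CREB3. These calls were made by edgeR's quasi-likelihood test, which gave the adjusted p-values below except where DESeq2 or limma voom is named, at a threshold of 0.05 after Benjamini-Hochberg adjustment over all 14012 genes. Of all genes tested, 18.5% were called higher and 18.9% lower at 4 h, 23.5% and 27.7% at 24 h in OCI-AML3, and 12.6% and 13.1% in HEK293T. Every treated library lay above every control for 22.9% of all genes and below for 23.4% at 4 h. These shares were 25.0% and 27.8% at 24 h in OCI-AML3, and 23.4% and 25.7% in HEK293T. Groups of a gene described below as apart or without overlap stand beside these shares, so that separation alone is common. Over the 10 genes the fold changes had a median, on the log2 scale, of 0.47, 0.48 and 0.57 in these comparisons, against -0.02, -0.01 and -0.01 over all genes. With a log2 fold change above 1 as well, 3 genes remained at 4 h (ERN1, XBP1 and DNAJB9), 2 at 24 h (XBP1 and DNAJB9) and 3 in HEK293T (CREB3L2, XBP1 and DNAJB9), where 3.45%, 4.05% and 1.58% of all genes passed.

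**Figure D2:**
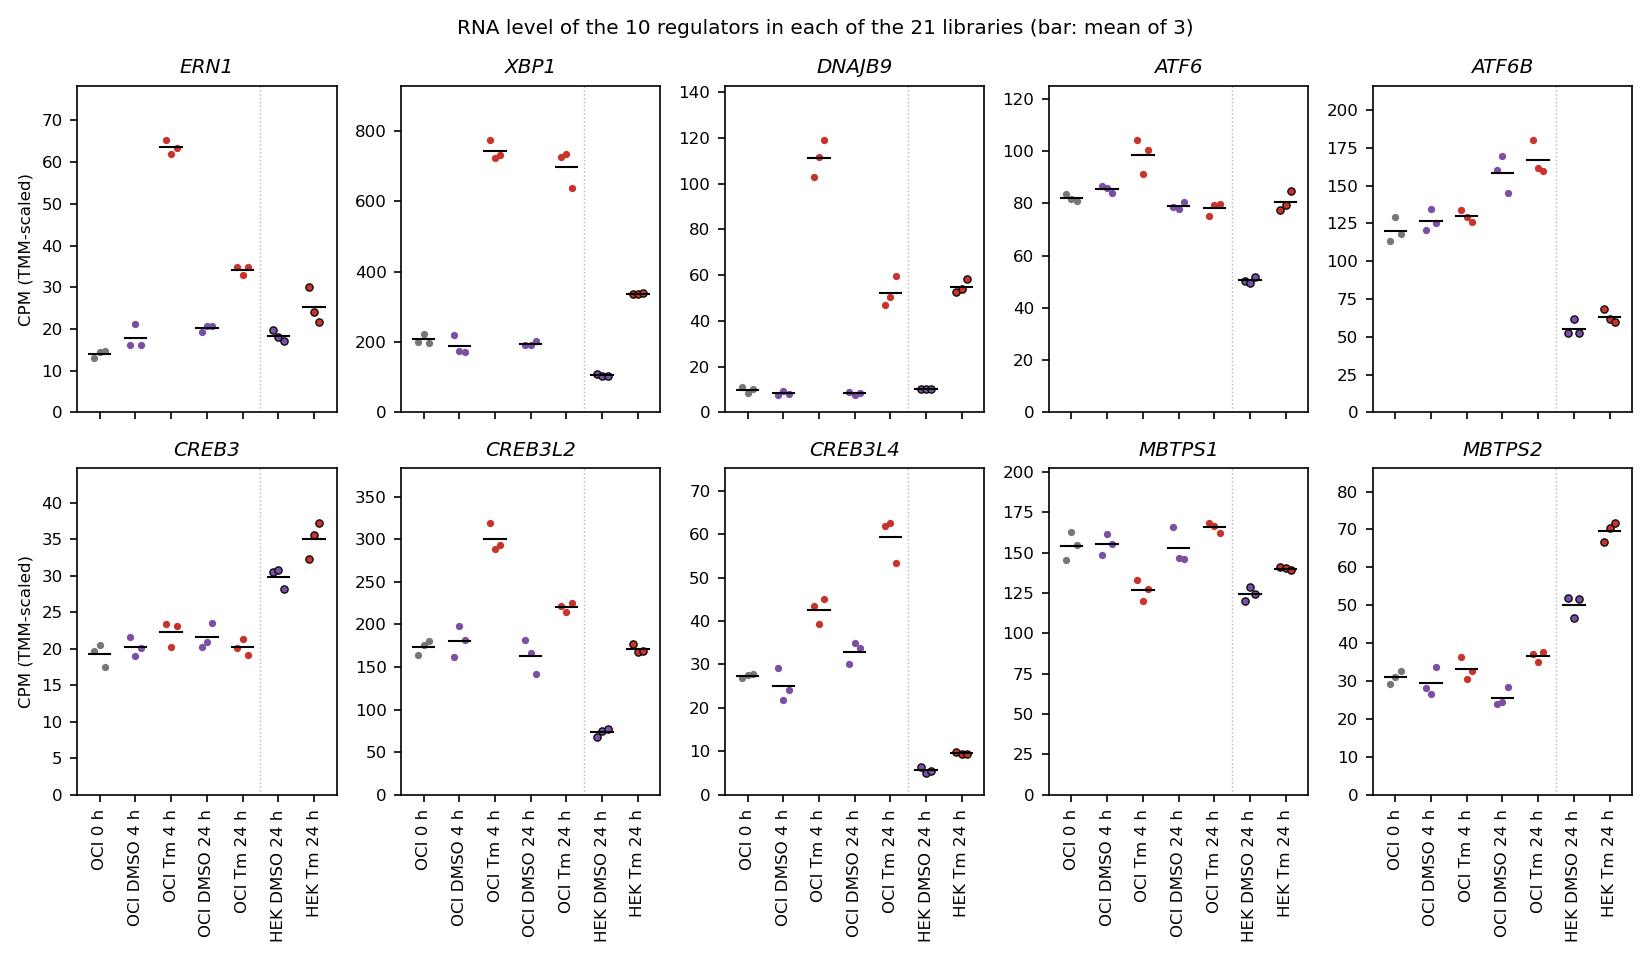
Level of each gene in CPM (y axis, from 0, scaled separately for each gene) in the 21 libraries, with the mean of each group as a bar. OCI is OCI-AML3, HEK is HEK293T and Tm is tunicamycin. Libraries are grey when untreated, purple with DMSO and red with tunicamycin, and HEK293T points have a black rim. ERN1 and DNAJB9 peaked at 4 h, XBP1 was high at both times, and ATF6 and CREB3L2 started lower in HEK293T than in OCI-AML3.

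ERN1 (ENSG00000178607, chr17:64039080-64130819, minus strand) encodes IRE1 itself. In OCI-AML3 cells it was at 16.1, 21.2 and 16.1 CPM after DMSO for 4 h and at 65.2, 62.0 and 63.3 CPM after tunicamycin. All 3 tunicamycin libraries stood far above the highest control, DMSO replicate 2. The rise was 1.84 ± 0.11 as a log2 fold change (standard error; adjusted p = 4.7e-12). At 24 h ERN1 was at 19.4, 20.8 and 20.6 CPM with DMSO and 34.8, 32.9 and 34.9 CPM with tunicamycin. The groups were again apart, but the treated libraries were lower than at 4 h. The rise was 0.76 ± 0.11 on the log2 scale (standard error; adjusted p = 6.3e-06), and the effect at 24 h was lower than at 4 h by -1.08 on the log2 scale (95% interval -1.38 to -0.78, adjusted p = 1.5e-05). In HEK293T cells ERN1 was at 19.9, 18.1 and 17.2 CPM with DMSO and at 29.9, 24.1 and 21.6 CPM with tunicamycin. Replicate 1 of the treated group was highest and the ranges did not overlap. The rise of 0.46 ± 0.11 on the log2 scale (standard error; adjusted p = 0.0028) was not called different from that of OCI-AML3 at 24 h (difference -0.29, 95% interval -0.59 to 0.01, adjusted p = 0.17), although without HEK293T tunicamycin replicate 1 the difference was -0.44 (adjusted p = 0.034).

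XBP1 (ENSG00000100219, chr22:28794555-28800597, minus strand) had the highest level per kilobase of the 10 genes in all 7 groups, and makes the RNA that IRE1 cuts. OCI-AML3 libraries held 218, 176 and 171 CPM after DMSO for 4 h and 773, 721 and 730 CPM after tunicamycin. At 24 h they held 192, 191 and 203 CPM with DMSO and 725, 734 and 636 CPM with tunicamycin. The rise therefore persisted at 24 h, when that of ERN1 had become smaller, and the effect on XBP1 differed between the times by -0.14 (95% interval -0.36 to 0.08, adjusted p = 0.34). In HEK293T cells XBP1 was at 109, 104 and 102 CPM with DMSO and at 336, 337 and 339 CPM with tunicamycin, so that treated HEK293T cells lay above the OCI-AML3 controls and below treated OCI-AML3 cells. The number of XBP1 reads per ERN1 read, each per kilobase of exon, put both genes side by side within a library. The size of this and the other ratios below depends on the gene lengths used, which cancel when groups are compared. With tunicamycin the XBP1 to ERN1 ratio was 73.8 ± 1.00 (SD, n = 3) at 4 h against 68.4 ± 16.8 with DMSO, and the ranges overlapped. At 24 h it was 129 ± 13.1 against 61.0 ± 2.63 in OCI-AML3 and 86.1 ± 14.2 against 36.2 ± 1.32 in HEK293T, and the ranges did not overlap.

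DNAJB9 (ENSG00000128590, chr7:108569867-108574850, plus strand) encodes ERdj4, a co-chaperone of BiP that restrains IRE1 and is itself a target of XBP1s. It had the lowest CPM of the 10 genes in OCI-AML3 controls, at 7.77, 9.41 and 8.01 CPM after DMSO for 4 h. Tunicamycin brought it to 103, 112 and 119 CPM at 4 h and to 46.9, 50.3 and 59.4 CPM at 24 h, when the DMSO libraries held 8.75, 7.79 and 8.24 CPM. The 4 h libraries were thus the highest for this gene. As for ERN1, the effect at 24 h was lower than at 4 h (by -1.06 on the log2 scale, 95% interval -1.37 to -0.76, adjusted p = 2.1e-05). HEK293T libraries held 10.4, 10.3 and 10.3 CPM with DMSO and 52.7, 54.0 and 58.4 CPM with tunicamycin. The effects of the lines at 24 h were not called different (difference -0.25, 95% interval -0.55 to 0.04, adjusted p = 0.23).

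ATF6 (ENSG00000118217, chr1:161766298-161977574, plus strand) encodes the sensor of the second branch, whose cleaved part drives ER chaperone genes. In OCI-AML3 cells it was at 86.5, 85.7 and 84.0 CPM after DMSO for 4 h and at 104, 91.3 and 101 CPM after tunicamycin. Replicate 2 of the treated group was the lowest and still above every control. ATF6 rose by 0.21 ± 0.06 (log2, standard error; adjusted p = 0.0075). Without tunicamycin replicate 1 the value was 0.17 and the call was lost (adjusted p = 0.053). At 24 h the groups overlapped, with 78.5, 77.8 and 80.6 CPM after DMSO and 75.2, 79.5 and 79.8 CPM after tunicamycin, and the log2 fold change was -0.01 (95% interval -0.13 to 0.10, adjusted p = 0.86). In HEK293T cells ATF6 stood at 50.4, 49.6 and 51.9 CPM with DMSO and at 77.6, 79.4 and 84.9 CPM with tunicamycin. No treated library came near the controls, and by the scaling used here the treated level was close to that of OCI-AML3 cells at 24 h with either treatment. The rise was 0.67 ± 0.06 (log2, standard error; adjusted p = 1.2e-08), and the effect was larger in HEK293T than in OCI-AML3 at 24 h by 0.68 (95% interval 0.52 to 0.85, adjusted p = 3.5e-06).

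ATF6B (ENSG00000213676, chr6:32115264-32128253, minus strand) encodes a paralogue of ATF6 that is cleaved in the same way and is a weaker activator. Its DMSO and tunicamycin libraries overlapped in all 3 comparisons. In OCI-AML3 it moved by 0.03 (log2, 95% interval -0.12 to 0.19) and 0.08 (-0.08 to 0.23) at 4 h and 24 h, with adjusted p = 0.78 and 0.44. In HEK293T cells the value was 0.19 (0.03 to 0.35, adjusted p = 0.087), and without DMSO replicate 2, the highest control at 61.5 CPM, it was 0.27 (adjusted p = 0.033). With all libraries and a fit of the HEK293T groups alone it was 0.21 and also passed (adjusted p = 0.014). The number of ATF6 reads per ATF6B read, each per kilobase of exon, was 0.234 ± 0.0249 (SD, n = 3) with DMSO and 0.326 ± 0.0368 with tunicamycin in HEK293T, without overlap. In OCI-AML3 at 24 h it was 0.127 ± 0.0125 and 0.119 ± 0.0115, with overlap.

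The CREB3 family consists of 5 ER-anchored factors, best known for expanding the secretory pathway in cells that export much protein. CREB3L2 (ENSG00000182158, chr7:137874979-138002086, minus strand) encodes BBF2H7, which drives transport genes such as SEC23A in cartilage. In OCI-AML3 cells it was at 162, 198 and 182 CPM after DMSO for 4 h and at 320, 289 and 294 CPM after tunicamycin. At 24 h it was at 182, 166 and 142 CPM with DMSO and at 222, 215 and 226 CPM with tunicamycin. At both times the groups were apart, and the treated libraries were lower at 24 h than at 4 h. CREB3L2 rose by 0.74 ± 0.08 and by 0.43 ± 0.08 (log2, standard error; adjusted p = 1.6e-07 and 1.3e-04). In HEK293T cells CREB3L2 was at 67.7, 75.3 and 77.0 CPM with DMSO and 177, 168 and 168 CPM with tunicamycin, a rise of 1.22 ± 0.08 on the log2 scale (standard error; adjusted p = 1.1e-10). By the scaling used here, treated HEK293T cells reached the range of OCI-AML3 controls. The effect exceeded that in OCI-AML3 at 24 h by 0.79 (95% interval 0.56 to 1.01, adjusted p = 3.0e-05).

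CREB3L4 (ENSG00000143578, chr1:153967534-153974361, plus strand) encodes a member of the family studied mostly in prostate and testis. In OCI-AML3 it was at 29.2, 21.8 and 24.2 CPM after DMSO for 4 h and 43.4, 39.4 and 45.2 CPM after tunicamycin. At 24 h it was at 29.98, 35.0 and 33.7 CPM with DMSO and 62.0, 62.6 and 53.4 CPM with tunicamycin. In HEK293T it was the least abundant of the 10 genes in CPM, at 6.31, 4.98 and 5.44 CPM with DMSO and 9.90, 9.31 and 9.47 CPM with tunicamycin. The treated libraries lay above the controls in each comparison, in HEK293T on 93 to 196 counts a library. The log2 fold changes of 0.77, 0.85 and 0.78 (standard errors 0.10, 0.10 and 0.13, adjusted p = 1.8e-06, 2.5e-07 and 6.6e-05) were close to each other in spite of the different levels. The differences between them were 0.08 between times (95% interval -0.19 to 0.35) and -0.07 between lines (-0.39 to 0.24). Exons of CREB3L4 share 280 bases with SLC39A1 and 93 bases with JTB on the opposite strand, and the sources used here do not say whether counting used the strand. The median was 2941 counts for SLC39A1 and 3149 for JTB against 438 for CREB3L4. SLC39A1 had log2 fold changes of -0.15, -0.20 and -0.28, and JTB of 0.27, 0.13 and 0.21.

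CREB3 (ENSG00000107175, chr9:35732598-35736999, plus strand), also called LUMAN, was at 17.4 to 23.5 CPM in all OCI-AML3 libraries and its treated and control libraries overlapped at both times. The log2 fold changes were 0.13 (95% interval -0.05 to 0.31, adjusted p = 0.27) and -0.09 (-0.28 to 0.09, adjusted p = 0.41). In HEK293T it was at 30.5, 30.8 and 28.2 CPM with DMSO and at 32.3, 35.6 and 37.3 CPM with tunicamycin. The ranges did not overlap, yet the log2 fold change of 0.23 (0.06 to 0.40) missed the threshold (adjusted p = 0.051). It passed, with an adjusted p of 0.036 to 0.049, when any 1 of 7 libraries was left out: untreated replicates 2 and 3, DMSO 4 h replicate 1, tunicamycin 4 h replicate 2, DMSO 24 h replicate 3 and tunicamycin 24 h replicate 3 of OCI-AML3, and tunicamycin replicate 1 of HEK293T. A fit of the HEK293T groups alone, with all their libraries, gave 0.24 and also passed (adjusted p = 0.0074). CREB3 shares 134 bases of exon with GBA2 on the opposite strand, with the same doubt on strand as for CREB3L4, and GBA2 had a median of 792 counts against 342 for CREB3. GBA2 had log2 fold changes of 0.03, 0.02 and -0.05. The number of CREB3L2 reads per CREB3 read, each per kilobase of exon, rose with the former gene, from 0.458 ± 0.0474 (SD, n = 3) to 0.911 ± 0.0941 in HEK293T and from 1.67 ± 0.275 to 2.52 ± 0.150 in OCI-AML3 at 4 h, without overlap. The other members of these families were nearly silent. CREB3L3 (CREBH, a liver factor) had 0 or 1 count in every library, ERN2 (IRE1 beta, an isoform of mucosal epithelia) 0 to 2, and CREB3L1 (OASIS) 0 to 7 in OCI-AML3 and 13 to 29 in HEK293T. A count of 0 allows up to 3 counts, which is 0.137 to 0.231 CPM and covers counting error only, and none of the 3 genes entered the tests.

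MBTPS1 (ENSG00000140943, chr16:84053761-84116942, minus strand) encodes the site-1 protease, which makes the first cut in ATF6 and in the CREB3 factors. It was the only one of the 10 genes that fell. OCI-AML3 libraries held 149, 162 and 155 CPM after DMSO for 4 h and 133, 120 and 127 CPM after tunicamycin. Every treated library was below every control, as for 23.4% of all genes. The change was -0.29 ± 0.06 on the log2 scale (standard error; adjusted p = 6.6e-04). At 24 h the groups overlapped at 166, 147 and 146 CPM with DMSO and 169, 167 and 162 CPM with tunicamycin. The log2 fold change was 0.12 (95% interval -0.01 to 0.24, adjusted p = 0.13), and the effect differed from that at 4 h by 0.41 (0.24 to 0.58, adjusted p = 0.001). The 24 h value was 0.16 to 0.22 and passed the test when any 1 of 6 libraries was left out, namely OCI-AML3 untreated replicate 2, DMSO 4 h replicate 1 or DMSO 24 h replicate 1, or any HEK293T DMSO replicate. It also passed by DESeq2 (0.15, adjusted p = 0.039) and with library sizes in place of TMM scaling (0.19, adjusted p = 0.017). In HEK293T MBTPS1 was at 120.0, 129 and 124 CPM with DMSO and at 141, 141 and 139 CPM with tunicamycin. The groups were apart, and MBTPS1 rose by 0.17 ± 0.06 (log2, standard error; adjusted p = 0.042). That call was lost, at values of 0.15 to 0.20 and an adjusted p up to 0.16, when any HEK293T library was left out, and also without untreated replicate 3, tunicamycin 4 h replicate 3 or tunicamycin 24 h replicate 1 or 2 of OCI-AML3.

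MBTPS2 (ENSG00000012174, chrX:21839617-21885423, plus strand) encodes the site-2 protease, which cuts within the membrane after the site-1 protease. At 4 h OCI-AML3 libraries overlapped at 28.2, 26.7 and 33.7 CPM with DMSO and 36.4, 30.6 and 32.6 CPM with tunicamycin, with a log2 fold change of 0.17 (95% interval -0.01 to 0.34, adjusted p = 0.17). Without DMSO replicate 3, the highest control, it was 0.27 (adjusted p = 0.029). At 24 h they held 23.8, 24.5 and 28.3 CPM with DMSO and 37.0, 34.9 and 37.6 CPM with tunicamycin, and the groups were apart (log2 fold change 0.52, standard error 0.09, adjusted p = 8.3e-05). HEK293T libraries held 51.9, 46.6 and 51.6 CPM with DMSO and 66.6, 70.3 and 71.8 CPM with tunicamycin, also apart (log2 fold change 0.47, standard error 0.09, adjusted p = 2.3e-04). MBTPS2 shares 1093 bases of exon with YY2 on its own strand, but YY2 had a median of 25 counts against 527 for MBTPS2. The number of MBTPS1 reads per MBTPS2 read at 4 h, each per kilobase of exon, was 4.62 ± 0.628 (SD, n = 3) with DMSO and 3.33 ± 0.133 with tunicamycin. It was 5.27 ± 0.788 and 3.96 ± 0.200 at 24 h, and 2.17 ± 0.208 and 1.76 ± 0.0784 in HEK293T, and in none of the 3 comparisons did the ranges overlap.

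**Figure D3:**
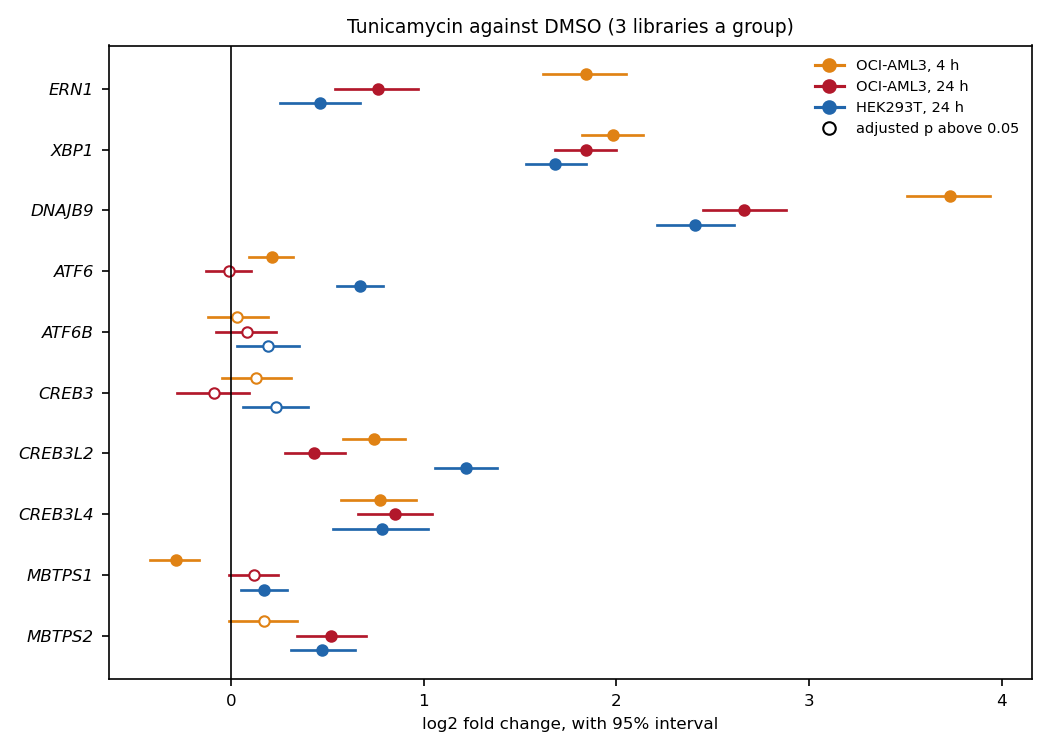
Log2 fold change of each gene with tunicamycin against DMSO (x axis) in OCI-AML3 at 4 h (orange) and 24 h (red) and in HEK293T at 24 h (blue), with 95% intervals. Open points have an adjusted p above 0.05. DNAJB9 and XBP1 lie farthest to the right, MBTPS1 at 4 h lies below 0 at -0.29, and ATF6 at 24 h moves from -0.01 in OCI-AML3 to 0.67 in HEK293T.

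The effect of tunicamycin was compared between 4 h and 24 h in OCI-AML3 by an interaction term. It differed for 6 of the 10 genes, where 35.3% of all genes differed in either direction. ERN1, DNAJB9, ATF6 and CREB3L2 had the smaller value at 24 h, and MBTPS1 and MBTPS2 the larger. The results for ATF6 (-0.22, 95% interval -0.39 to -0.06, adjusted p = 0.043), CREB3L2 (-0.30, -0.53 to -0.08, adjusted p = 0.042) and MBTPS2 (0.35, 0.10 to 0.61, adjusted p = 0.039) were close to the threshold. For ATF6 the call was lost when any 1 of 17 libraries was left out, that is any of the 21 except OCI-AML3 untreated replicate 1 and tunicamycin 4 h replicate 2 and HEK293T tunicamycin replicates 1 and 3 (-0.23 to -0.16, adjusted p up to 0.16). For CREB3L2 it was lost for 14 libraries, the same ones except OCI-AML3 untreated replicate 3, DMSO 4 h replicate 2 and DMSO 24 h replicate 3 (-0.32 to -0.19, adjusted p up to 0.21). Both were also lost by DESeq2 (adjusted p = 0.085 and 0.073) and with its size factors in edgeR. Library sizes in place of TMM, each of the 2 other filters, a fit of the compared groups alone and the replicate block ended both calls too. In all, 24 of the 29 alternatives ended the call for ATF6 and 21 that for CREB3L2. For MBTPS2 it was lost without DMSO 4 h replicate 3, tunicamycin 4 h replicate 2 or 3, DMSO 24 h replicate 1 or 2, or tunicamycin 24 h replicate 3 (0.25 to 0.36, adjusted p up to 0.15). The differences for ERN1, DNAJB9 and MBTPS1 were called whichever library was left out.

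Between the lines at 24 h the effect differed for 2 of the 10 genes, ATF6 and CREB3L2, both larger in HEK293T, where 26.8% of all genes differed in either direction. Both were the same on leaving out any library. For CREB3 the difference was 0.33 (95% interval 0.08 to 0.57, adjusted p = 0.06), and 0.38 (adjusted p = 0.043) without HEK293T tunicamycin replicate 1. For ATF6B it was 0.12 (-0.10 to 0.34), for MBTPS1 0.06 (-0.11 to 0.23), for MBTPS2 -0.04 (-0.29 to 0.20) and for XBP1 -0.15 (-0.37 to 0.06), none of which passed. With library sizes in place of TMM scaling the XBP1 difference was -0.26 and did pass (adjusted p = 0.038).

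**Figure D4:**
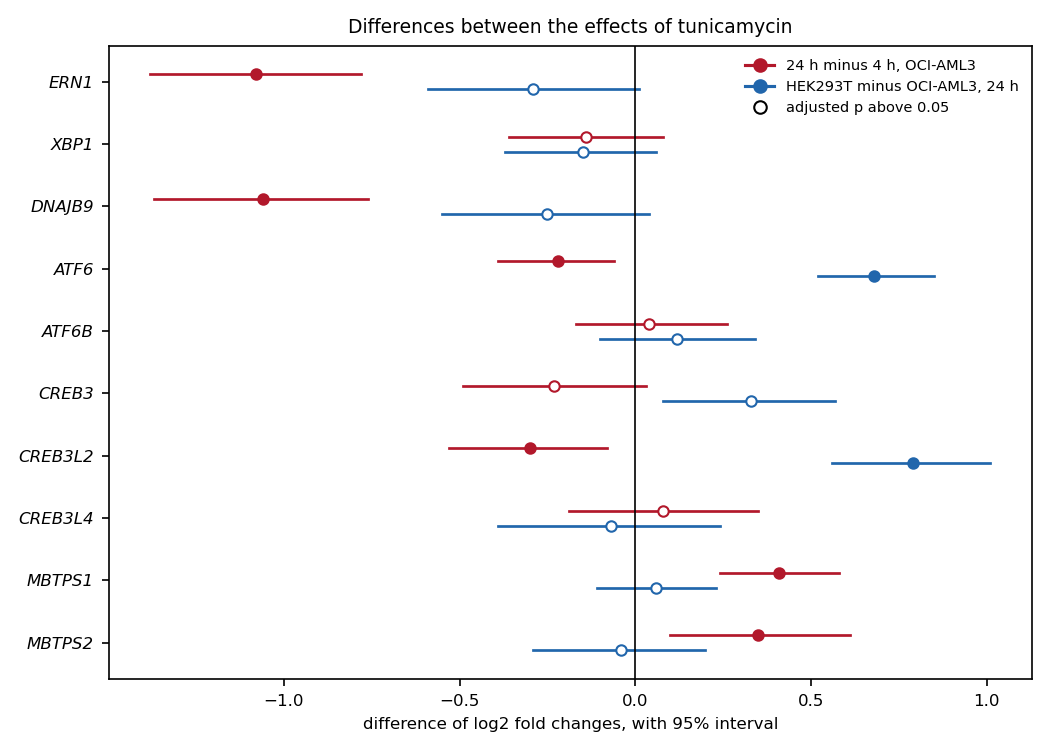
Difference between the effects of tunicamycin (x axis, difference of log2 fold changes with 95% interval) at 24 h and 4 h in OCI-AML3 (red) and in HEK293T and OCI-AML3 at 24 h (blue). Open points have an adjusted p above 0.05. ERN1 (-1.08) and DNAJB9 (-1.06) lie to the left for time, and ATF6 (0.68) and CREB3L2 (0.79) to the right for cell line.

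Levels of different genes were compared per kilobase of exon. In untreated OCI-AML3 cells the order was XBP1 (68.6 CPM per kilobase), ATF6B (33.1), CREB3L2 (19.7), MBTPS1 (15.02), CREB3 (11.8), CREB3L4 (9.45), ATF6 (5.75), DNAJB9 (3.84), MBTPS2 (3.46) and ERN1 (0.735). Of these neighbours only DNAJB9 and MBTPS2 overlapped. After 4 h of tunicamycin DNAJB9 had moved to second place at 43.8 CPM per kilobase, and ERN1 at 3.32 was still last. In HEK293T with DMSO the order was XBP1 (34.6), CREB3 (18.3), ATF6B (15.3), MBTPS1 (12.1), CREB3L2 (8.33), MBTPS2 (5.59), DNAJB9 (4.07), ATF6 (3.55), CREB3L4 (1.92) and ERN1 (0.960), with no overlap between neighbours. With the length of the longest transcript in place of all exons, XBP1 stayed first and ERN1 last in all 7 groups, but MBTPS1 moved up to rank 3 in untreated OCI-AML3 and to rank 2 in HEK293T, and after 4 h of tunicamycin ATF6B (49.4) took rank 2 and DNAJB9 (46.1) rank 3, with overlap. In that treated group ERN1 (7.04) also overlapped MBTPS2 (7.45) by this length.

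The control groups were also compared, where DMSO for 4 h differs from no treatment in both solvent and time. Between DMSO for 4 h and no treatment none of the 10 genes passed, where 0% of the 14012 genes were called by edgeR. At an unadjusted p under 0.05 there were 1160 genes, 1 of them among the 10 (ERN1, log2 fold change 0.34, 95% interval 0.11 to 0.57, adjusted p = 0.48), limma voom called 0 genes and DESeq2 16, none of the 10. From 4 h to 24 h of DMSO, 2 of the 10 genes changed, ATF6B (0.32, adjusted p = 0.0022) and CREB3L4 (0.39, adjusted p = 0.0032), where 42.6% of all genes did. Without DMSO 4 h replicate 1, XBP1 (0.18, adjusted p = 0.047) and CREB3L2 (adjusted p = 0.04 to 0.043, also without DMSO 24 h replicate 1) passed. Without DMSO 4 h replicate 2, ERN1 (0.33, adjusted p = 0.027) and MBTPS2 (adjusted p = 0.026 to 0.031, also without DMSO 24 h replicate 3) did.

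Between the lines with DMSO for 24 h, 9 of the 10 genes differed, where 82.7% of all genes did. Lower in HEK293T were CREB3L4 (log2 difference -2.56, standard error 0.12), ATF6B (-1.52, 0.08), CREB3L2 (-1.16, 0.08), XBP1 (-0.90, 0.08), ATF6 (-0.64, 0.06) and MBTPS1 (-0.30, 0.06), and higher were MBTPS2 (0.97, 0.09), CREB3 (0.47, 0.09) and DNAJB9 (0.32, 0.12). ERN1 was the exception at -0.14 (95% interval -0.36 to 0.08, adjusted p = 0.24). With library sizes in place of TMM scaling the median of all genes went from -0.01 to 0.33, MBTPS1 became 0.04 and ERN1 0.20, so their direction rests on the scaling. Levels set side by side between the lines above, such as those of ATF6, CREB3L2 and XBP1, depend on the same scaling. With no filter beyond 1 count, where the median of all genes was -0.19, DNAJB9 was at 0.14 and lost its call (adjusted p = 0.41), and ERN1 was at -0.32 and gained one (adjusted p = 0.0099).

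Other genes of the branches were read from lists of known members, chosen with earlier results of these data known, so that their counts are a description. Beside them stand the shares of all genes, of which 18.5% rose and 18.9% fell at 4 h, 23.5% and 27.7% at 24 h, and 12.6% and 13.1% in HEK293T. All 14 of the ATF6 targets, mostly ER chaperones and degradation factors, rose in all 3 comparisons, with medians on the log2 scale of 2.42 at 4 h and 2.78 at 24 h in OCI-AML3 and of 1.93 in HEK293T, against the medians near 0 of all genes given above. The values at 4 h were highest for HSPA5, which encodes BiP (3.29, adjusted p = 6.8e-21), SDF2L1 (3.11, adjusted p = 4.9e-15) and HERPUD1 (3.04, adjusted p = 4.0e-19). Of 16 XBP1 targets, most of them parts of the translocation, transport and degradation machinery, 13, 12 and 15 rose and 0 fell, with medians of 0.60, 0.58 and 1.10. DNAJB11 (1.80), DERL2 (1.56) and SEC24D (1.18) led at 4 h. Of 8 CREB3 family targets, of which HERPUD1 and SEC24D are also in the lists above, 5, 6 and 6 rose and 0 fell, with medians of 0.42, 0.30 and 0.56. They included ARF4, a Golgi GTPase, at 0.41, 0.20 and 0.58, while SEC23A was at 0.10, 0.10 and 0.05 and did not pass.

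Of 12 partners of IRE1 and factors of XBP1 splicing, 6 rose and 0 fell at 4 h, 6 rose and 3 fell at 24 h, and 8 rose and 4 fell in HEK293T. The 3 falls at 24 h were near the 27.7% of all genes that fell, the 0 at 4 h compare with 18.9% and the 4 in HEK293T with 13.1%, and 18.5%, 23.5% and 12.6% of all genes rose. The highest at 4 h were HSPA5, whose product holds IRE1 inactive, SYVN1 (2.37, adjusted p = 1.8e-14), a ubiquitin ligase, and PDIA6 (1.06, adjusted p = 2.5e-12), a disulphide isomerase. HSPA5, SYVN1 and PDIA6 are all also among the ATF6 targets, and SEC61A1 is also among the XBP1 targets, so the counts of these lists are not independent. RTCB, the ligase that joins the cut XBP1 RNA, was at 0.07 at 4 h (adjusted p = 0.49) and fell at 24 h (-0.45, adjusted p = 6.6e-05) and in HEK293T (-0.25, adjusted p = 0.021). TRAF2, an adaptor of IRE1, also fell at 24 h (-0.42, adjusted p = 0.0012) and in HEK293T (-0.32, adjusted p = 0.021), with PTPN1 (-0.20 and -0.24). The kinase MAP3K5 fell in HEK293T (-0.37, adjusted p = 0.028). The 4 falls in HEK293T became 0 in at least 1 of the 29 alternative fits, where the adjusted p of each was near the threshold.

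Of 14 factors that activate or assist ATF6 and the CREB3 proteins, 5 rose and 4 fell at 4 h, 5 rose and 1 fell at 24 h, and 2 rose and 1 fell in HEK293T. Of all genes, 18.5% rose and 18.9% fell at 4 h, 23.5% and 27.7% at 24 h and 12.6% and 13.1% in HEK293T, so that the counts in HEK293T were near or below those shares and the 1 fall at 24 h was far below. Over the 29 alternatives the rises numbered 3 to 5, 5 to 8 and 2 to 5, and the fall at 24 h and that in HEK293T became 0 in 16 and 7 of them. SEC24D, a coat protein of the vesicles that leave the ER, rose by 1.18, 0.38 and 1.87, whereas SEC24B was at -0.25, 0.00 and -0.14 and passed at 4 h only. PDIA5, an isomerase that acts on ATF6 disulphides, rose by 0.24, 0.39 and 1.40. TXNDC12 rose at 4 h (0.28, adjusted p = 0.032) but was at -0.12 at 24 h and -0.09 in HEK293T, neither of which passed. Of the subunits of NF-Y, the partner of ATF6 at the ERSE, NFYA fell (-0.44, adjusted p = 8.8e-05) and NFYC rose (0.52, adjusted p = 1.0e-06) at 4 h, and NFYB was at 0.02 (adjusted p = 0.9). SPRING1, an activator of the site-1 protease, fell at 4 h by 0.47 on the log2 scale (adjusted p = 3.7e-06), in the same comparison as MBTPS1, but it also fell in HEK293T (-0.18, adjusted p = 0.035), where MBTPS1 was called higher. That call for MBTPS1 was lost in 15 of the 29 alternatives. GTF2I fell at 4 h as well (-0.36, adjusted p = 1.7e-04). Of the other substrates of the proteases, SREBF1 was at 0.13 at 4 h, -0.35 at 24 h and 0.79 in HEK293T, SREBF2 at 0.20, -0.38 and 0.38, and GNPTAB at -0.42, 0.45 and -0.27. All but SREBF1 at 4 h passed. SREBF2 at 4 h was close to the threshold (adjusted p = 0.047), and the count of substrates that rose at 4 h became 0 in 14 of the 29 alternatives, as did that of substrates that fell in HEK293T in 4.

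Of 8 tested messenger RNAs listed as cut by IRE1 outside XBP1 splicing (regulated IRE1-dependent decay, RIDD), a list that counts ERN1 itself, 4 fell at 4 h, 2 at 24 h and 2 in HEK293T, and 1, 4 and 2 rose. Of all genes, 18.9%, 27.7% and 13.1% fell and 18.5%, 23.5% and 12.6% rose, so that the 2 falls at 24 h were near the share of all genes. The falls in HEK293T numbered 0 to 3 over the 29 alternatives. The medians were -0.25, 0.13 and -0.22. Among the genes called at 4 h, SCARA3 (-0.97, adjusted p = 0.014), DGAT2 (-0.95, adjusted p = 5.6e-06) and TGOLN2 (-0.25, adjusted p = 0.003) were lowest, and ERN1 was the one that rose. BLOC1S1, a commonly used reporter of this decay, was at -0.31 (adjusted p = 0.088) at 4 h, fell at 24 h (-0.64, adjusted p = 5.1e-04), and was at -0.22 (adjusted p = 0.3) in HEK293T. HGSNAT fell at 4 h (-0.24) and rose at 24 h (0.31) and in HEK293T (0.70).

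**Figure D5:**
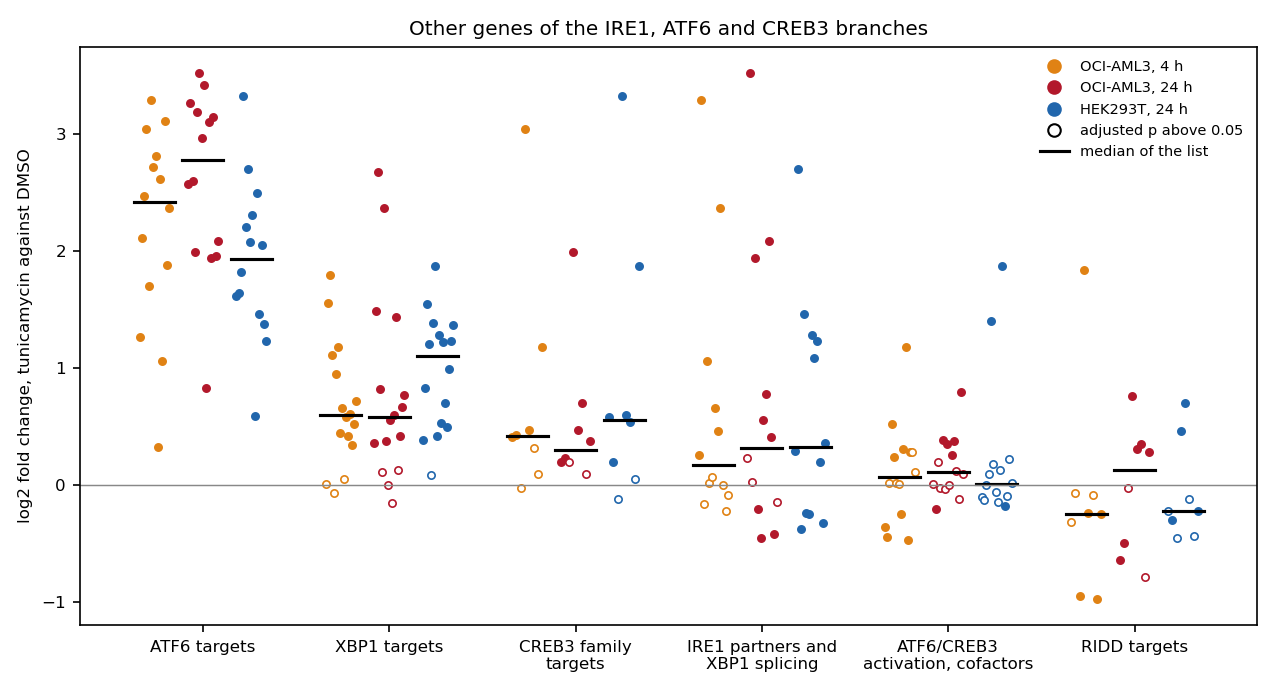
Log2 fold change with tunicamycin (y axis) of each tested gene of 6 lists, in OCI-AML3 at 4 h (orange) and 24 h (red) and in HEK293T at 24 h (blue). Open points have an adjusted p above 0.05 and bars are medians. All 14 ATF6 targets lie above 0 in each comparison, and the RIDD list, which includes ERN1 at 1.84, has a median of -0.25 at 4 h.

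For each gene the 3 others with the most similar level pattern were sought by the root mean square difference of log2 CPM over the 7 group means, each gene centred on its own mean. Nearest to XBP1 were SEL1L (0.16), CDK2AP2 (0.18) and WARS1 (0.23). Nearest to DNAJB9 were FICD (0.27), HYOU1 (0.32) and SDF2L1 (0.33). CREB3L2 had SURF4 (0.13), MYDGF (0.17) and NRL (0.18), and ERN1 had MXD1 (0.11), CBLB (0.23) and HSD17B7 (0.25). ATF6, whose pattern spanned only 0.96 on the log2 scale, had SLC12A2-DT (0.07), SEC31A (0.09) and INVS (0.09), and SEC31A is itself on the list of XBP1 targets. ATF6B was nearest to AACS, NINJ1 and TMEM101 (0.05 to 0.08), CREB3 to TMEM161A, GRK4 and SLC25A38 (0.06 to 0.07), and MBTPS2 to TMEM106B, CTNS and SEC62 (0.06 to 0.07). MBTPS1 had MFSD14A (0.05), FAM120C (0.06) and a gene without a symbol (0.05), and the 3 nearest to CREB3L4 had no symbol (0.09 to 0.14). With a prior count of 0.5 in place of 2, only 1 of the 3 stayed for CREB3L4, which then had NIPAL2 and KRCC1 (0.17 each), and 2 of 3 stayed for ERN1 and for CREB3L2. Over 7 group means of 2 cell lines such a distance is a description, in which the difference between the lines weighs heavily.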

How the data were processed

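The authors selected polyadenylated RNA, trimmed paired-end reads (seqtk), mapped these to GRCh38 (STAR) and assigned the alignments to Ensembl genes by RSEM. They deposited RSEM expected counts per gene, unscaled and unfiltered. RSEM divides reads that fit several genes between them, and the sources used here do not give the strand setting.

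The expected counts were rounded to whole numbers and scaled by TMM. A gene had to reach 1 CPM in 8 or more libraries. The 7 group means were fitted together over the 21 libraries and compared by edgeR's quasi-likelihood test (edgeR 4.0.16, R 4.3.3), two-sided, with Benjamini-Hochberg adjustment over all 14012 genes. A gene was called at an adjusted p of at most 0.05, or past both thresholds with a log2 fold change also beyond 1 in size. Filter and thresholds follow the study's methods, which used limma voom and describe the filter both as counts per library size and as TPM. CPM was used here, and the genes kept need not be the same. The 95% intervals are 1.96 standard errors to each side. The scripts were tested on simulated data.

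The alternatives were limma voom (limma 3.58.1), DESeq2 1.42.0 (Wald test), its size factors in edgeR, library sizes in place of TMM, 2 other filters, a model of only the groups compared, a replicate block, and each library left out in turn. The genes named include the 10 regulators and the 3 genes nearest to each. For most lists they also include up to 3 called genes farthest from 0 in each direction at 4 h in OCI-AML3. Other listed genes, such as PDIA5, SEC24B and ARF4, were named by no fixed rule. The called genes SEC24C, KDELR2 and COPB1 were not described. ATF6 target lists and the others, and the 10 regulators, were chosen with earlier results of these data known. Positions and lengths are from GENCODE release 44 (60401 of 60671 identifiers matched, all 10 regulators among them), and promoters from RefSeq. Figures were drawn with matplotlib 3.10.9.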

Additional observations from a re-analysis of the deposited data

Results flagged for a closer look

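The effect of tunicamycin differed by the interaction test between groups for 8 results. Between 24 h and 4 h in OCI-AML3 the log2 difference was -1.08 for ERN1 (edgeR adjusted p = 1.5e-05), -1.06 for DNAJB9 (adjusted p = 2.1e-05), -0.22 for ATF6 (adjusted p = 0.043), -0.30 for CREB3L2 (adjusted p = 0.042), 0.41 for MBTPS1 (adjusted p = 0.001) and 0.35 for MBTPS2 (adjusted p = 0.039). Between HEK293T and OCI-AML3 at 24 h it was 0.68 for ATF6 (adjusted p = 3.5e-06) and 0.79 for CREB3L2 (adjusted p = 3.0e-05). ATF6 and CREB3L2 are listed for both comparisons, which share the OCI-AML3 libraries at 24 h. Between times their calls were lost in 24 and 21 of the 29 alternatives, DESeq2 among them (adjusted p = 0.085 and 0.073). The call for MBTPS2 between times was lost in 8 of the 29 (edgeR adjusted p up to 0.15).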

How the results depend on the processing

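Each of 80 gene results was recomputed under 29 alternatives. In 2175 of these recomputations direction and call were kept, in 71 a call was lost, in 33 one was gained and in 41 the sign of a value turned. Calls for ERN1, XBP1, DNAJB9, CREB3L2, CREB3L4 and MBTPS2 with tunicamycin held in every alternative in each comparison in which they were made. The call for ATF6 at 4 h was lost with no filter beyond 1 count (adjusted p = 0.22), and that for MBTPS1 in HEK293T in 15 alternatives (edgeR adjusted p up to 0.3), while CREB3 in HEK293T gained one in 9, limma voom among them (adjusted p = 0.036).

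Of the counts over the 10 genes, that of genes whose effect differed between times became 3 with no filter and 3 with only the compared groups fitted, and 3 to 6 when a library was left out. Those also beyond a difference of 1 became 0 with library sizes and 0 to 2 when a library was left out (1 or 0 without DMSO 4 h replicate 1, DMSO 24 h replicate 1 or tunicamycin 24 h replicate 1 or 2). For the difference between lines, leaving out a library gave 2 to 4, and for DMSO at 24 h against 4 h 2 to 4, with 5 under library sizes, which took the median of all genes from -0.02 to -0.14.

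Signs turned mostly for values that had not been called. The exception was MBTPS1 between the lines with DMSO (-0.30, adjusted p = 1.2e-04), which became 0.04 with library sizes, where ERN1 went from -0.14 to 0.20. ATF6 at 24 h in OCI-AML3 was 0.02 by DESeq2, with its size factors and with 1 CPM in 3 libraries, 0.07 with library sizes, 0.01 with the compared groups alone, and -0.01 to 0.06 when a library was left out. ATF6B at 4 h was 0.00 with no filter. CREB3 at 24 h in OCI-AML3 was -0.10 to 0.02 when a library was left out. For CREB3L4 the difference between times was -0.01 to 0.18. For MBTPS1 that between lines was -0.05 with library sizes and -0.05 to 0.06 when a library was left out. From 4 h to 24 h of DMSO, library sizes gave -0.03 for CREB3 and -0.06 for XBP1, which was -0.01 to 0.18 when a library was left out. DESeq2 and its size factors gave 0.00 for DNAJB9 (-0.07 to 0.06 on leaving out a library) and 0.01 for MBTPS1 (-0.08 to 0.01). Against untreated cells, leaving out a library gave -0.02 to 0.14 for CREB3L2, -0.03 to 0.07 for MBTPS1 and -0.17 to 0.00 for MBTPS2. The cause was not tested.

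Libraries with the same replicate number deviated from their group means with correlations of -0.14 to 0.13, and not every library was nearest to its own number, so the numbers were not used as pairs. With the replicate block the genes called in HEK293T numbered 7 of the 10 in place of 8 (MBTPS1, adjusted p = 0.063), and 4 in place of 6 between times (ATF6, adjusted p = 0.053, and CREB3L2, adjusted p = 0.069), and over all genes 5186, 7048 and 3479 in the 3 tunicamycin comparisons in place of 5249, 7163 and 3606. The counts of ATF6 targets called were the same in every alternative. For ATF6B and CREB3 the absence of a call does not show that they did not change. Values of similar size to theirs in HEK293T (0.19 and 0.23) were called for MBTPS1 in HEK293T (0.17) and for ATF6 at 4 h (0.21).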
